A study of Mus musculus with 29 samples.

Results

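IRF8 occupancy in microglia, the macrophages that reside in brain tissue, was compared between adult animals and animals at postnatal day 14 (P14). The comparison used the deposited peak lists of 3 libraries titled P14 microglia - IRF8 and 3 titled Adult microglia - IRF8, which are 6 of the 25 libraries of the series with a peak list and 6 of its 13 IRF8 libraries. Overlapping peaks were merged within an age, and a merged region was kept when 2 or more of the 3 libraries of that age had a peak in it. This gave 8133 consensus regions at P14 and 16934 in the adult. A region was called shared when it overlapped a consensus region of the other age by 1 bp or more.

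The microglia were sorted by flow cytometry from female mice of the strain labelled IRF8-EGFP, at both ages. IRF8 was profiled through an antibody against GFP, so every value below concerns the tagged protein. The assay was CUT&RUN, in which a nuclease tethered to the antibody releases the DNA around the bound protein for paired-end sequencing. Adult animals were 3 months old by the growth protocol, which gives this age for all samples. Adult replicates 1 and 2 are labelled batch 1 and adult replicate 3 batch 2, and the P14 labels name no batch. The peak headers name P14_IgG as control for the P14 lists and IgG_control for the adult lists, so age and control library cannot be told apart. The labels do not say whether libraries came from separate animals, and the p-values below measure only the spread between these libraries.

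IRF8 is a transcription factor of the interferon regulatory factor family that is restricted largely to blood and immune cells and is required for normal microglia. It binds DNA weakly alone. With the ETS factor PU.1, the main lineage factor of macrophages, it binds a composite element in which an ETS core lies next to an IRF half-site, and with IRF1 or IRF2 it can bind interferon response elements. Microglia at P14 are still in postnatal maturation, while adult microglia carry the homeostatic program that includes P2ry12, Tmem119 and Sall1.

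The windows below show the composite ETS-IRF element in regions of each kind: the highest-ranked shared region, adult-only region and P14-only region that held it, and 2 shared regions at homeostatic microglia genes that were chosen after their values were seen. Each is the reference sequence of GRCm38.p6, the patch release of mm10, around the centre of the region, on the plus strand and 5′ to 3′. Capitals mark the element, GGAA and GAAA separated by 2 bases, which reads as its reverse complement where it lies on the minus strand.
Bcl2l14 (shared; chr6:134220620-134220820, intron of Etv6): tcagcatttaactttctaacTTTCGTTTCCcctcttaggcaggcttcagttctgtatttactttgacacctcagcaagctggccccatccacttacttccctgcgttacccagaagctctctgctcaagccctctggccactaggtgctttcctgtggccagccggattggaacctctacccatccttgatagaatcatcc
P2ry12 (shared; chr3:59225473-59225673, intron 2008 bp from the P2ry12 start): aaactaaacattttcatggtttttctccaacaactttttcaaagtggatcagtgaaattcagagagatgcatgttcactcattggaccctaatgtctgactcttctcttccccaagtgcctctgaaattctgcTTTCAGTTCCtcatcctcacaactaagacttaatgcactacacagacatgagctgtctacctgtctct
Gpr34 (shared; chrX:13636316-13636516, intron 3647 bp from the Gpr34 start): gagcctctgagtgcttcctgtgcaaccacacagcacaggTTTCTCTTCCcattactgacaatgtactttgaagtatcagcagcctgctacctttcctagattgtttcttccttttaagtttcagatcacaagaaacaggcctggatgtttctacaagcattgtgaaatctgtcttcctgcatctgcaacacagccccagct
Hmcn2 (adult only; chr2:31325401-31325601, intron 11086 bp from the Hmcn2 start): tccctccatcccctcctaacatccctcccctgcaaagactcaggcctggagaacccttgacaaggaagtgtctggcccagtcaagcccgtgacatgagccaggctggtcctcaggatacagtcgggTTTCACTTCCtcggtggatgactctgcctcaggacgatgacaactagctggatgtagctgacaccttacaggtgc
Myl7 (P14 only; chr11:5892116-5892316, intergenic, 6566 bp from the Myl7 start): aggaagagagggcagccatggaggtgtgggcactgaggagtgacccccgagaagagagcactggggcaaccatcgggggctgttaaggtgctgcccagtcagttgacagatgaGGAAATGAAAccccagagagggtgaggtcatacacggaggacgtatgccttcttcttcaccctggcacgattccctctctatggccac
The element lay on the minus strand in the first 4 windows and on the plus strand in the last. The Bcl2l14 region had fold enrichments over control of 17.9, 21.3 and 17.6 in P14 replicates 1 to 3 and of 29.0, 25.9 and 20.7 in adult replicates 1 to 3, as the authors' peak caller gave them. The Hmcn2 region was listed in the 3 adult libraries at 11.3, 13.9 and 7.04 and in no P14 library. The Myl7 region was listed in P14 replicates 1 and 2 at 5.83 and 6.14 and in no adult library.

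Adult libraries listed more IRF8 regions than P14 libraries on average, with overlap between the groups. After counting each position once and merging, the P14 libraries held 7956, 19238 and 7931 regions and the adult libraries 17048, 29661 and 22420. P14 replicate 2 lay above the lowest adult library. The ratio of the geometric means was 2.11, a log2 difference of 1.07 (14.46 ± 0.40 in adult against 13.38 ± 0.74 at P14, SD, n = 3 each), with a two-sided exact permutation p of 0.2, where 3 against 3 libraries cannot go below 0.1. Over the 31 measures compared in this way the Benjamini-Hochberg adjusted value was 0.477.

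**Figure D1:**
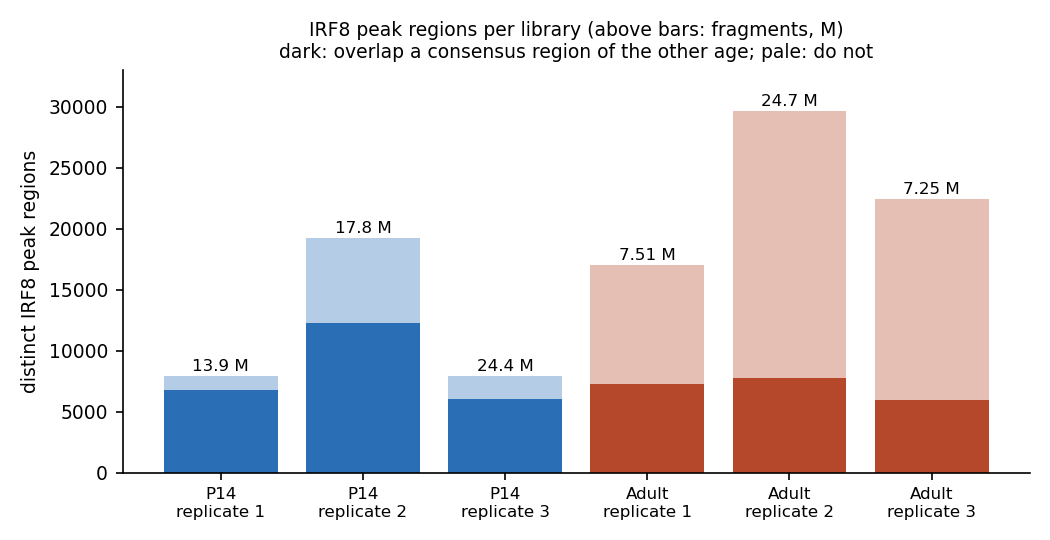
Distinct IRF8 regions per library, by age and replicate. The P14 libraries sit between 7931 and 19238 and the adult libraries between 17048 and 29661, so the groups overlap.

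Depth, fragment length and width differed among the libraries. The lists rested on 13.9, 17.8 and 24.4 M fragments at P14 and on 7.51, 24.7 and 7.25 M in the adult, by the file headers. The most deeply sequenced library had the most regions in the adult but not at P14, where replicate 3 had the most fragments and the fewest regions. A pair of libraries stood apart. Adult replicate 3, the only library of batch 2, had narrow peaks (median width 298 bp against 620 and 696 bp in adult replicates 1 and 2 and 394 to 485 bp at P14), and only 48.0% of its regions lay in adult wild-type H3K27ac regions against 70.3% to 83.2% in the other 5 libraries. P14 replicate 2 had more regions than the other P14 libraries together. Results are therefore also given with lists of equal length, in which each library was reduced to its 7931 regions of smallest authors' p-value, and without single libraries.

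Almost all P14 regions were also adult regions, while most adult regions overlapped no P14 consensus region in the full lists. Of the 8133 P14 regions, 7532 (92.6%) were shared. Of the 16934 adult regions, 7311 (43.2%) were shared and 9623 (56.8%) were adult only. The P14-only regions numbered 601 (7.39%). In bases, the adult regions covered 22.4 Mb and the P14 regions 7.80 Mb, and the 6.85 Mb in both made up 87.8% of the P14 bases and 30.5% of the adult bases. Of the shared P14 regions, 4863 (64.6%) lay wholly inside an adult region.

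When lists of equal length were used, the difference between the ages was smaller and both ages had regions of their own. Consensus regions then numbered 6259 at P14 and 6797 in the adult, of which 74.1% and 66.2% were shared. Adult-only regions numbered 2297 and P14-only regions 1619. Without P14 replicate 2, the longest P14 list, the shared portion of adult regions was 23.0%, and without adult replicate 2, the longest adult list, it was 63.1%. Within batch 1 alone (adult replicates 1 and 2) 89.3% of P14 regions and 47.7% of adult regions were shared, and batch 2 held a single adult library. Leaving out a shorter list also moved the adult portion, to 54.4% without adult replicate 1 and to 30.9% and 34.7% without P14 replicates 1 and 3, where a region then needed a peak in both remaining libraries.

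**Figure D2:**
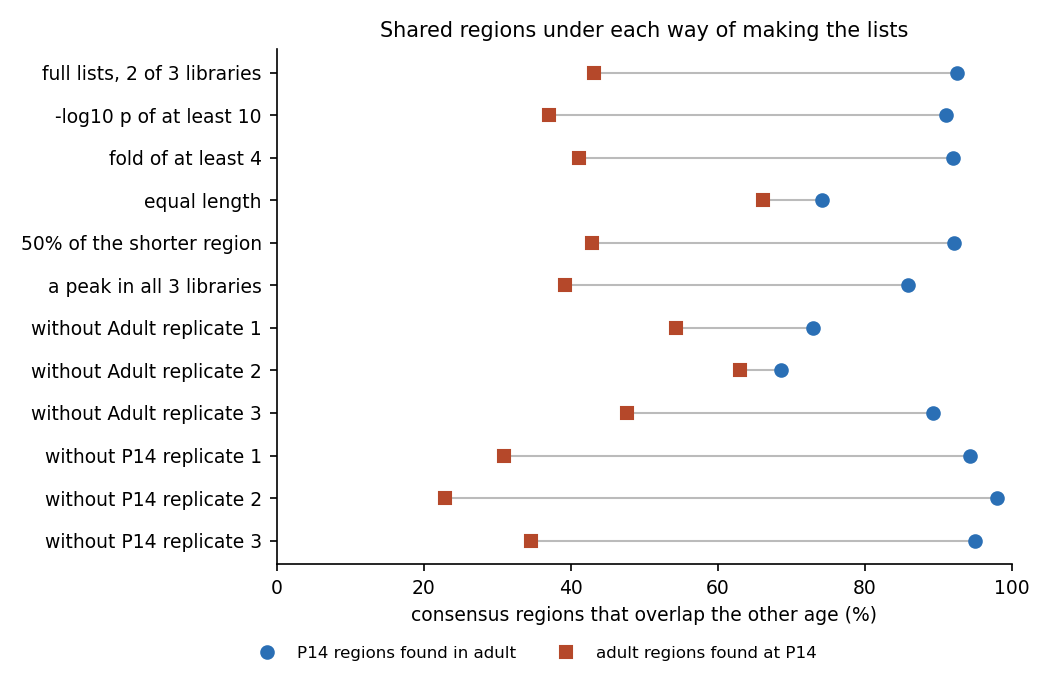
Percent of P14 and of adult consensus regions shared with the other age, for the full lists, stricter thresholds, lists of equal length and lists without each library. P14 regions were shared at 92.6% and adult regions at 43.2% in the full lists, against 74.1% and 66.2% at equal length.

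Many unshared regions had a peak in a library of the other age. Of the 9623 adult-only regions, 5090 overlapped a peak of at least 1 P14 library and 4533, or 26.8% of all adult regions, overlapped none. Of the 601 P14-only regions, 481 overlapped a peak of at least 1 adult library and 120, or 1.48% of all P14 regions, overlapped none. Support in all 3 libraries of one age with none of the other was found at 1012 adult-only regions and at 7 P14-only regions. With lists of equal length these counts were 222 and 131, and the regions without any peak at the other age numbered 1003 in the adult and 694 at P14, so the imbalance between the ages was much smaller. By comparison, 5481 of the 7311 shared adult regions (75.0%) had a peak in all 3 adult libraries, against 22.3% of the adult-only regions without any P14 peak.

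Sharing went with peak strength at both ages. Adult regions were sorted into 10 bins of equal size by the mean, over the libraries of their age, of their within-library percentile of the authors' −log10 p-value. In the weakest bin 9.04% overlapped a P14 consensus region, and in the strongest bin 95.1% did. For P14 regions the corresponding portions were 78.8% and 100%. At equal length the portions ran from 34.2% to 97.1% in the adult and from 44.2% to 99.4% at P14. Adult-only regions without a P14 peak sat at a median of 42.1 on this percentile scale, against 75.7 for shared adult regions, and were narrower, with a median width of 802 against 1394 bp.

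**Figure D3:**
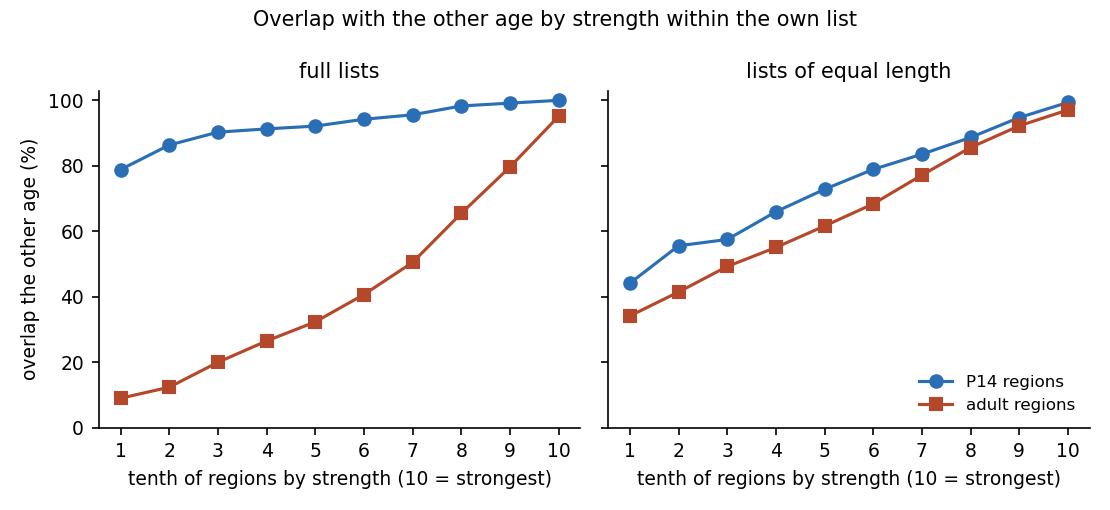
Percent of consensus regions that overlapped a consensus region of the other age, by bin of peak strength (10 bins of equal size), for the full lists and lists of equal length. In the full lists adult regions ran from 9.04% in the weakest bin to 95.1% in the strongest, and P14 regions from 78.8% to 100%.

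Libraries of one age were on average more alike than libraries of different age, by a small margin. Between lists of equal length the Jaccard index, the number of overlapping regions over all regions of a pair of libraries, averaged 38.6% among P14 libraries (34.5% to 43.4%), 43.2% among adult libraries (35.9% to 56.3%) and 38.2% between ages (26.4% to 48.1%). The difference of 2.70 percentage points between pairs within and across ages was the largest of the 10 ways to part the 6 libraries into 3 and 3, an exact one-sided permutation p of 0.1, the smallest possible. It was 0.246 percentage points without adult replicate 3 and 4.83 without P14 replicate 2. The most similar pair was adult replicates 1 and 2 at 56.3%, from a single labelled batch, and P14 replicate 2 with adult replicate 2 reached 48.1%. At the 3428 regions with a peak in all 6 libraries, Spearman's rho of fold enrichment across regions averaged 0.599 among adult libraries, 0.566 among P14 libraries and 0.425 between ages. These coefficients describe regions and not independent replicates, and libraries of one age share their control.

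**Figure D4:**
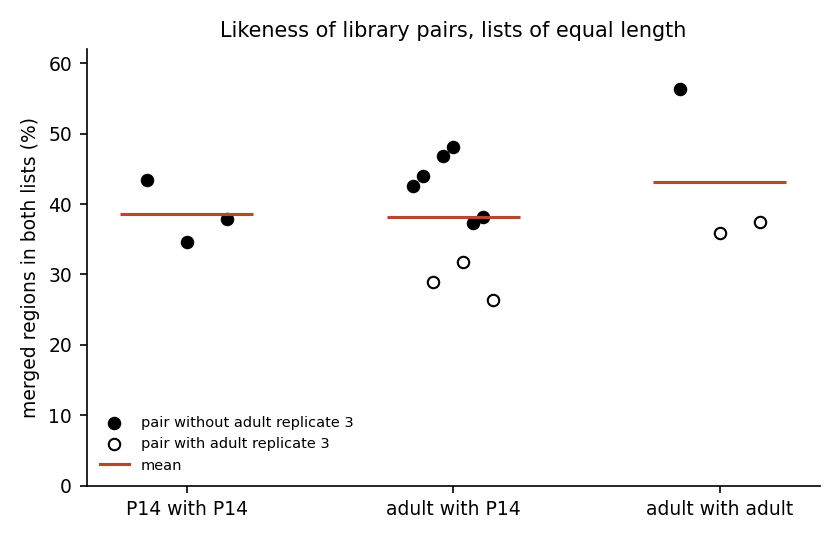
Jaccard index in percent for each pair of the 6 libraries with lists of equal length. Pairs between ages range from 26.4% to 48.1% and overlap the range of pairs within an age.

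Introns and intergenic sequence together held most regions of every class. A region was placed at a promoter when its centre lay within 1 kb of the start of a protein-coding transcript, and otherwise in an exon, an intron or between genes. Promoters held 24.98% of shared adult regions, 27.8% of adult-only regions without a P14 peak and 30.5% of adult-only regions with a peak in some P14 library. In the first and second of these classes introns held 37.8% and 38.5%, and intergenic sequence 33.3% and 29.1%. At P14, promoters held 24.0% of shared regions and 25 of the 120 P14-only regions without an adult peak (20.8%). With lists of equal length, promoters held 20.2% of shared P14 regions and 33.0% of P14-only regions without an adult peak (229 of 694), and 21.2% of shared adult regions and 22.3% of adult-only regions without a P14 peak. Among whole libraries the promoter portion was 21.9%, 23.2% and 23.1% at P14 and 27.9%, 23.5% and 16.5% in the adult, a mean difference of -0.09 percentage points with a two-sided exact permutation p of 1. Adult replicate 3 lay below every P14 library and the other adult libraries above, so that without it the difference was 2.97 percentage points in the other direction (exact p = 0.1, the smallest possible).

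Shared regions lay more often than unshared regions at sites of PU.1 and of active chromatin. These reference lists came from adult wild-type microglia only, with 2 libraries each, and PU.1 replicate 2 was called at a looser q of 0.05. PU.1 regions overlapped 47.7% of shared adult regions, 15.7% of adult-only regions with a peak in some P14 library and 6.53% of those with none. At P14 they overlapped 46.4% of shared regions and 8.33% of P14-only regions without an adult peak. In lists of equal length, the portions without a peak at the other age were higher, at 16.0% in the adult and 23.8% at P14, and those of shared regions were 58.7% and 57.2%. H3K27ac, a mark of active promoters and enhancers, overlapped 89.5% of shared adult regions and 70.4% of adult-only regions without a P14 peak. It overlapped 53.3% of P14-only regions without an adult peak. H3K4me1, a mark of enhancers, gave 95.3%, 85.8% and 63.3% for the same 3 classes. At equal length H3K27ac overlapped 78.7% of P14-only regions without an adult peak and 77.6% of adult-only regions without a P14 peak, and H3K4me1 87.0% and 89.8%. Both marks remained below their values in shared P14 regions, 91.3% and 96.4%.

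The PU.1 overlap followed peak strength as the sharing did. PU.1 regions overlapped 7.09% of the weakest and 69.8% of the strongest bin of adult regions, and 19.4% and 83.8% at P14. Seen from PU.1, 76.1% of adult IRF8 regions with PU.1 were shared and 31.0% of those without. At equal length these portions were 82.9% and 51.4%. In whole libraries, PU.1 regions overlapped 40.4%, 23.2% and 37.1% of regions at P14 and 26.4%, 16.6% and 16.5% in the adult. The groups overlapped, with 33.6% ± 9.16 at P14 and 19.9% ± 5.69 in the adult (SD, n = 3 each) and a two-sided exact permutation p of 0.2. At equal length the difference was -0.66 percentage points (exact p = 1).

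Around region centres, the composite ETS-IRF element was found at both ages more often than in flanking sequence. Within 100 bp of the region centre, on either strand, it was found in 6.92% of shared adult regions and 5.63% of adult-only regions without a P14 peak, against 2.63% and 1.74% in windows of the same length 1 kb away. At P14 it was found in 8.60% of shared regions (2.23% away) and in 3 of the 120 P14-only regions without an adult peak (2.5%). For lists of equal length, it was found in 47 of the 694 P14-only regions without an adult peak (6.77%, against 2.74% away) and in 6.58% of the corresponding adult-only regions. Of 32815 protein-coding promoter windows of that length, 579 (1.76%) held it. In whole libraries the element was found in 8.01%, 6.26% and 7.55% of P14 regions and in 7.31%, 5.70% and 4.39% of adult regions. These values overlapped between the ages, with a difference of -1.47 percentage points and a two-sided exact permutation p of 0.2, and the difference was -0.61 with lists of equal length. Leaving out adult replicate 1 gave -2.23 and leaving out adult replicate 3 gave -0.77. With the window at the strongest summit instead of the centre, the portions of whole libraries were lower. They were 3.91%, 3.45% and 4.01% at P14 and 2.56%, 3.03% and 3.78% in the adult, a difference of -0.66 percentage points. Flanking windows were not counted around summits. The centre of a region moves with its width, so the same site can be counted at one age and missed at the other: the P2ry12 and Gpr34 elements shown above lay within 100 bp of the P14 centre but not of the adult centre.

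The strongest shared regions were headed by Mbnl1 and Synpr. The 8 named were those with the highest value of the lowest within-library rank of fold enrichment over all 6 libraries. The region at the promoter of Mbnl1, a splicing factor (chr3:60468217-60475965), had fold enrichments of 49.9, 66.4 and 33.8 at P14 and 98.0, 75.5 and 46.5 in the adult. The intronic region of Synpr, which encodes the synaptic vesicle protein synaptoporin (chr14:13360551-13362787), had 32.5, 59.6 and 26.9 at P14 and 62.1, 49.3 and 32.7 in the adult. An intron of Tyk2, the kinase of the type I interferon receptor (chr9:21125016-21126457), had 25.4, 34.7 and 22.2 at P14 and 55.2, 47.0 and 21.6 in the adult. Fold enrichments are relative to a different control at each age, and no comparison of their sizes between the ages was made. At rank 6 was the promoter of Wdfy4, needed for cross-presentation in dendritic cells (chr14:33184096-33186524), with 20.1, 30.0 and 15.5 at P14 and 46.2, 53.0 and 31.7 in the adult. Regions nearest to Rbm47, Parp8, Lilr4b and Bcl2l14 completed the 8, the last inside an intron of Etv6. All 8 overlapped adult PU.1, H3K27ac and H3K4me1 regions, and 7 were listed in all 19 libraries of the series other than the knockout libraries, H3K4me1 and H3K27ac included.

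The 8 strongest adult-only regions were named by their nearest gene. The first (chr2:12059354-12061073) was intergenic, 72339 bp from Itga8, an integrin gene, with fold enrichments of 21.6, 21.3 and 11.9 in the 3 adult libraries. A region 718 bp from the start of Klrb1b, a receptor gene of the natural killer complex (chr6:128826525-128827573), had 12.4, 11.9 and 8.21. An intron of Kdm6a, an X-linked histone demethylase gene (chrX:18239051-18240365), had 11.9, 10.0 and 10.6. The region 2947 bp from Zfp36, which encodes the mRNA-destabilising protein tristetraprolin (chr7:28381819-28384582), had 13.0, 9.04 and 7.62 and was also listed in 3 peritoneal macrophage libraries. The other 4 lay nearest to the starts of Tmprss4, Smim15 (187621 bp away), App (104329 bp away) and 1700125H20Rik. The Smim15 region overlapped Zswim6, and the Tmprss4 region overlapped BC049352 and was 94.0% repeat sequence. None of the 8 overlapped a PU.1 region, against 6.53% of all adult-only regions without a P14 peak, and 1 lay at a promoter, against 27.8%. H3K27ac overlapped 3 (Kdm6a, Smim15 and Zfp36), against 70.4%, and none of the 8 had a peak in any P14 library, as the rule required.

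In the full lists 7 P14-only regions had support in all 3 P14 libraries, against 131 with lists of equal length. All 7 of the full lists are named here, with the strongest of the 113 that had 2 libraries. The promoter region of Banp (chr8:121950109-121950578), 149 bp from the start of this gene for a nuclear DNA-binding protein, had fold enrichments of 7.50, 7.59 and 5.85. An intronic region of Tep1, a telomerase-associated protein gene (chr14:50833710-50834528), had 6.25, 6.14 and 7.61. A region 13589 bp from Ly6c1, a surface antigen gene of monocytes and endothelium (chr15:75062246-75062592), had 6.25, 3.97 and 6.44. An intronic region of Eef2, the translation elongation factor gene (chr10:81177200-81178752), had 4.16, 3.18 and 2.91, near the lower end of its libraries. The others lay nearest to Dynll1, Zbtb7c, Iqch and Gm3376, and the Gm3376 region, on chromosome Y of these female samples, was 100% repeat sequence. Fold enrichments in these 8 regions ran up to 12.3, below those of the strongest shared regions.

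IRF8 was found at more gene loci in the adult, and nearly all P14 loci were adult loci as well. A locus was the gene body with 10 kb on either side. Of 21911 protein-coding genes, 9596 (43.8%) held an adult consensus region and 5693 (26%) a P14 consensus region, with 5503 genes in common. IRF8 was found in the adult and not at P14 at 4093 genes (18.7%) and at P14 and not in the adult at 190 (0.867%). At equal length these counts were 1237 (5.65%) and 945 (4.31%). The adult count was 2337 without adult replicate 1, 1608 without adult replicate 2 and 6358 without P14 replicate 2. The P14 count was 894, 1164 and 312 without adult replicates 1 to 3 and 113, 32 and 89 without P14 replicates 1 to 3.

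A stricter reading asked for a peak in all 3 libraries of one age and in none of the other. It held for 462 genes (2.11%) in the adult direction, of which 378 had an adult H3K27ac region, and for 1 gene (0.00456%) in the P14 direction. That gene was Aadac, an esterase gene on chromosome 3 with 1 region in each P14 library. With lists of equal length the counts were 125 (0.57%) and 79 (0.361%). Among the 445 distinct listed genes with a match, 330 held an adult region, 258 a P14 region and 253 both. Of these, 5 had a peak in all 3 adult libraries and none at P14, and 0 the reverse.

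All 20 homeostatic microglia genes held an adult region, against 43.8% of all genes, and 17 held a P14 region, against 26%. Adult wild-type H3K27ac regions lay in all 20 loci too, against 12104 of the 21911 loci of all genes. The 3 genes without a P14 consensus region were Sall1, Tgfbr1 and Ltc4s, a portion below the 18.7% of all genes in the adult alone. Together the 20 loci held 58, 85 and 45 regions in the P14 libraries and 93, 141 and 74 in the adult libraries, so P14 replicate 2 exceeded adult replicate 3. The loci held 82 adult consensus regions, of which 45 were shared and 17 had no P14 peak, and 51 P14 consensus regions, of which 48 were shared and 0 lacked an adult peak. PU.1 overlapped 36 of the 82 and 34 of the 51. The composite element lay within 100 bp of the centre in 0 of the 82 adult and 5 of the 51 P14 regions.

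P2ry12, the purinergic receptor that guides microglial processes, held 7, 9 and 7 regions at P14 and 10, 15 and 8 in the adult. A P14 region in its locus (chr3:59227896-59230793) had fold enrichments of 9.81, 26.4 and 5.35 at P14 and 18.4, 17.1 and 15.8 in the adult. Csf1r, the receptor for the survival factors CSF1 and IL-34, held 4, 5 and 3 regions at P14 and 5, 11 and 6 in the adult. Cx3cr1, the fractalkine receptor, held 7, 9 and 2 at P14 and 11, 14 and 6 in the adult. All of these loci were occupied in each of the 6 libraries, and their region counts overlapped between the ages at P2ry12 and Cx3cr1, while at Csf1r every adult library was at or above every P14 library.

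Tmem119, a microglial surface marker, held 0, 2 and 1 regions at P14 and 2, 5 and 1 in the adult. Sall1, a zinc finger repressor that maintains microglial identity, held 0, 2 and 1 at P14 and 2, 8 and 1 in the adult, with 3 adult consensus regions at chr8:89037099-89038046, chr8:89039468-89040942 and chr8:89042615-89044655. Tgfbr1, a receptor chain for TGF-β, held 1, 3 and 0 at P14 and 5, 10 and 0 in the adult. Ltc4s, the leukotriene C4 synthase gene, held 1, 1 and 0 at P14 and 2, 5 and 0 in the adult. At each of Sall1, Tgfbr1 and Ltc4s 2 of the 3 P14 libraries thus had a peak in the locus, though not at a common position. With lists of equal length 15 of the 20 genes were occupied at both ages, 0 in the adult alone and 1, Fcrls, at P14 alone. The portions of all genes were 17.0%, 5.65% and 4.31%.

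P2ry13 held 3, 6 and 2 regions at P14 and 5, 6 and 3 in the adult. Gpr34, a receptor gene for lysophosphatidylserine, held 1, 3 and 1 and 3, 5 and 3, and Siglech, a sialic acid-binding lectin gene, 4, 4 and 3 and 5, 5 and 6. Entpd1, which encodes the ATP-degrading enzyme CD39, held 7, 9 and 6 and 11, 13 and 9. Crybb1 held 2, 5 and 4 and 7, 7 and 5, Selplg 2, 4 and 3 and 4, 6 and 6, and Il10ra 6, 8 and 2 and 6, 9 and 7. Olfml3 held 2, 2 and 1 and 3, 2 and 1, Cst3 2, 3 and 2 and 2, 3 and 2, and Fcrls 1, 1 and 1 and 2, 2 and 0. Cst3 thus had the same counts at both ages. Slc2a5 held 0, 2 and 1 and 1, 3 and 2, and Sparc 1, 2 and 0 and 2, 5 and 1. Among the genes of this paragraph, every adult library was at or above every P14 library at Gpr34, Siglech, Entpd1, Crybb1 and Selplg, and the counts overlapped at the others.

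**Figure D5:**
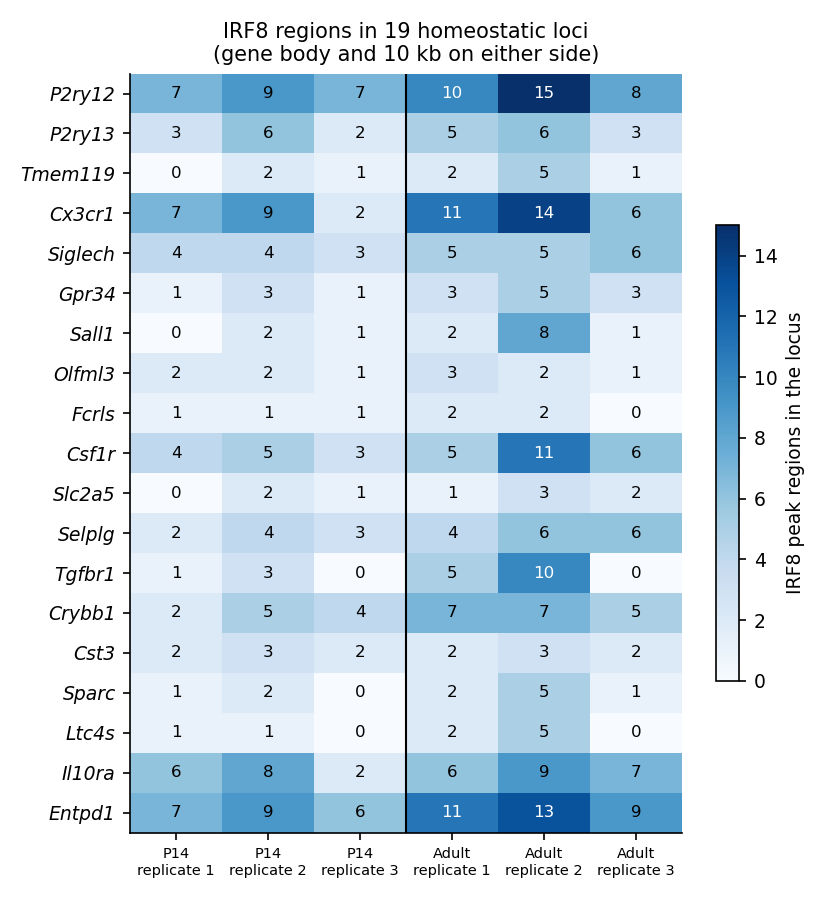
Number of IRF8 regions in the locus of 19 of the 20 homeostatic microglia genes, by library. Adult replicate 2 has the highest or equal highest count at most loci, and Sall1, Tgfbr1 and Ltc4s hold at most 3 regions in any P14 library.

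The loci of the IRF family were mostly occupied at both ages. Adult consensus regions lay at 8 of 9 family members and P14 regions at 7, against 43.8% and 26% of all genes. Irf8 was occupied in the adult alone, 1 of 9 against 18.7% of all genes, and Irf4 at neither age. In lists of equal length, 5 were occupied at both ages, Irf7 in the adult alone, Irf3 at P14 alone, and Irf8 at neither, against 5.65% and 4.31% of all genes at one age alone. Irf2, a partner of IRF8, held 4, 9 and 4 regions at P14 and 10, 14 and 8 in the adult. An intronic Irf2 region (chr8:46789156-46790771) had fold enrichments of 11.6, 16.5 and 9.45 at P14 and 21.6, 21.3 and 13.7 in the adult. Irf1 held 1, 2 and 1 and 1, 1 and 2, Irf5 4, 3 and 3 and 4, 5 and 5, and Irf7, the amplifier of interferon production, 1, 1 and 1 and 2, 1 and 1. Irf8 held 1, 4 and 1 regions at P14 and 3, 3 and 3 in the adult, giving 3 adult consensus regions and 0 at P14. Irf9 held 1, 1 and 0 and 1, 1 and 2, and Irf3 1, 1 and 0 and 1, 1 and 0. Irf4 had a region in adult replicate 2 only.

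Among 19 myeloid and ETS factor genes, 18 held an adult region and 13 a P14 region, against 43.8% and 26% of all genes. The 5 in the adult alone, against 18.7% of all genes, were Cebpa, Cebpb, Klf4, Maf and Myb. Spi1, which encodes PU.1, held 2, 4 and 3 regions at P14 and 3, 6 and 6 in the adult, and its P14 region at chr2:91080482-91087550 had fold enrichments of 6.66, 12.6 and 6.73 and 17.6, 14.4 and 6.45. Cebpb, a factor of myeloid differentiation, held 0, 1 and 0 at P14 and 3, 2 and 1 in the adult. Cebpa held 0, 2 and 0 and 1, 4 and 0, Klf4 0, 2 and 0 and 2, 2 and 1, Maf 0, 1 and 0 and 1, 3 and 1, and Myb 1, 0 and 0 and 0, 2 and 1. Each of these 5 loci had a peak in 1 P14 library, and with lists of equal length none of the 5 held an adult consensus region. The list then had 8 genes occupied at both ages, 2 in the adult alone and 2 at P14 alone, against 5.65% and 4.31% of all genes. Etv6, an ETS repressor gene, held 13, 21 and 10 and 20, 32 and 20, and Fli1 6, 8 and 7 and 8, 12 and 8. Runx1 held 2, 7 and 2 and 9, 7 and 7, and Elf1 3, 9 and 1 and 10, 16 and 5. At Runx1 and Elf1, P14 replicate 2 alone of the P14 libraries reached the adult range. Ikzf1 held 0, 3 and 1 and 5, 11 and 6, and Tal1 1, 4 and 1 and 4, 7 and 1. The others were Egr1 (2, 2 and 1 and 2, 3 and 3), Egr2 (1, 3 and 0 and 3, 2 and 2), Ets1 (0, 4 and 2 and 3, 5 and 4), Ets2 (1, 1 and 1 and 2, 2 and 2), Elf4 (0, 1 and 1 and 0, 5 and 1) and Gfi1 (a region in adult replicate 3 only).

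Interferon and antigen presentation genes were mostly occupied in the adult, and many at P14 too, where all genes were occupied at 43.8% and 26%. Of 29 type I interferon-stimulated genes with a match, 20 held an adult region and 12 a P14 region, 9 in the adult alone and 1, Ifit1, at P14 alone, against 18.7% and 0.867% of all genes. In lists of equal length, 4 were occupied in the adult alone (Usp18, Ifitm3, Trim25 and Ifi35) and 4 at P14 alone (Ifit1, Mx1, Stat2 and Ddx58). The imbalance was then no longer seen, and each portion was 13.8%, against 5.65% and 4.31% of all genes. All 10 of the 12 interferon-inducible GTPase genes with an adult region also held a P14 region. MHC class I genes and their peptide-loading factors were occupied at 13 of 13 loci in the adult and 12 at P14, with Pdia3 in the adult alone. MHC class II genes were occupied at 9 of 11 loci in the adult and 7 at P14, with H2-Ab1 and Ciita in the adult alone, close to the portion among all genes. At equal length 3 class II genes (H2-Ab1, H2-Ob and Ciita) were occupied in the adult alone and 1, Cd74, at P14 alone, against 5.65% and 4.31% of all genes.

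Ciita, the master activator of MHC class II transcription, was occupied in all adult libraries and in no P14 library. Its locus held 2, 7 and 2 regions in the adult and 0 at P14. The promoter region (chr16:10479533-10480626), centred 20 bp from a start, had fold enrichments of 7.55, 9.33 and 6.28, and a second region (chr16:10475754-10476493) had 4.56, 5.80 and 6.27. Ciita also had, with lists of equal length, a peak in 3 adult and 0 P14 libraries.

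The other listed genes with this pattern were Smad4, Cdc20, F13a1 and Nkg7. Smad4, the common SMAD of TGF-β signalling, held 2 regions in each adult library, with an intronic region (chr18:73692836-73694074) at 4.53, 4.41 and 10.1. Cdc20, an activator of the anaphase-promoting complex, held 1 in each at 5.19, 3.67 and 4.69, but this region (chr4:118427783-118428411) was centred 4 bp from the start of its neighbour Elovl1. F13a1, a coagulation factor gene expressed by border macrophages, held 3, 1 and 4. Nkg7, a gene of cytotoxic lymphocytes, held 1 in each at 3.62, 2.47 and 4.07, and this region (chr7:43443629-43444334) was centred 102 bp from the start of its neighbour Etfb. A locus of this width can thus hold the promoter of another gene. At equal length 4 of the 445 listed genes had 3 adult and 0 P14 libraries (Aurkb, Ciita, Bcl3 and Rarb), against 0.57% of all genes. The reverse was seen at 1, Stat2, a mediator of type I interferon signalling, against 0.361% of all genes.

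Most genes of the lists of microglial state and function that were occupied in the adult were also occupied at P14. Among all genes 43.8% were occupied in the adult and 26% at P14. Of 22 disease-associated microglia genes with a match, 16 held an adult region and 12 a P14 region, with Spp1, Fth1, Lgals3 and Ank in the adult alone. Of 20 genes near Alzheimer's disease risk variants, 15 and 14 were occupied, with Plcg2 in the adult alone. Lysosome genes were occupied at 25 and 22 of 26 loci, Toll-like receptor pathway genes at 20 and 18 of 21 and complement genes at 11 and 9 of 15. Fcγ receptor pathway genes were occupied at 7 and 6 of 7 loci, purine signalling genes at 9 and 8 of 11 and lipid handling genes at 11 and 10 of 14. Compared with the 18.7% of all genes occupied in the adult alone, 4 of 22, 1 of 20, 3 of 26, 2 of 21, 2 of 15, 1 of 7, 1 of 11 and 1 of 14 genes of these lists were so. At equal length the counts were 1, 0, 1, 1, 0, 1, 1 and 0, against 5.65%. Of the adult-alone genes named here, only Lgals3 remained so. At P14 alone the counts were then 0, 0, 1, 0, 1, 1, 0 and 0, against 4.31%.

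NF-κB, white matter and chemokine genes had 5 of 15, 5 of 15 and 4 of 12 members in the adult alone in the full lists, against 18.7% of all genes. At equal length 1, 1 and 0 were in the adult alone, against 5.65%, and 2, 0 and 0 at P14 alone, against 4.31%. Of 15 NF-κB genes, 15 held an adult and 10 a P14 region, against 43.8% and 26% of all genes. Of 15 white matter-associated microglia genes, 9 and 4 did, and of 12 chemokine genes 11 and 7, with Ccl3, Ccl4, Ccl9 and Cxcl9 in the adult alone. The portion in the adult alone was near the 18.7% of all genes for the next lists. Cell cycle genes were occupied at 18 and 12 of 31 loci with 6 in the adult alone, and MEF2 and KLF factor genes at 9 and 7 of 12 with 2. TGF-β pathway genes were occupied at 14 and 11 of 16 loci, with 3 in the adult alone (Tgfbr1, Smad2 and Smad4). AP-1 genes (9 and 10 of 11), cytokine genes (7 and 8 of 11) and growth factor receptor genes (6 and 6 of 11) had no adult-alone member. Phagocytosis receptor genes were occupied at 14 and 13 of 16 loci, with 3 in the adult alone (Gas6, Itgb3 and Stab1), against 18.7% of all genes, and 2 at P14 alone (Tyro3 and Siglece), against 0.867%. At equal length 3 cell cycle and 1 phagocytosis receptor genes were in the adult alone, against 5.65% of all genes. At P14 alone were then 4 and 3, against 4.31%.

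Of the 445 listed genes with a match, 5 were occupied at P14 alone, against 0.867% of all genes. They were Fosl1, Ifit1, Il12b, Tyro3 and Siglece, and at 4 of them the region lay nearest to the start of another gene. The region at Ifit1, an interferon-induced RNA-binding protein gene (chr19:34639971-34641022), was centred 247 bp from a start of its neighbour Ifit1bl2. It also overlapped the edge of the Ifit1 gene itself, at chr19:34640871. The region had fold enrichments of 7.59 and 5.56 in P14 replicates 2 and 3 and 6.44 in adult replicate 2. The region in the locus of Siglece, an inhibitory lectin gene (chr7:43642374-43643690), lay nearest to Ceacam18 and was listed in all 3 P14 libraries at 7.08, 4.19 and 5.85 and in adult replicate 1 at 3.71. The region 9707 bp from Il12b, the IL-12 subunit p40 gene (chr11:44390147-44390566), had 4.998 and 6.14 in P14 replicates 1 and 2. The region in the locus of Fosl1, an AP-1 subunit gene (chr19:5460424-5461031), was at the promoter of Fibp. The region at the edge of the locus of Tyro3, a receptor tyrosine kinase for apoptotic cells (chr2:119787224-119787780), was at the promoter of Rpap1 with 5.69 and 4.65 in P14 replicates 1 and 3. All 5 loci had a peak in at least 1 adult library. At Il12b and Tyro3 this peak lay elsewhere in the locus, and the P14 region itself overlapped no adult peak. For lists of equal length, Ifit1, Il12b, Tyro3 and Siglece were again occupied at P14 alone, as were 4.31% of all genes, and Fosl1 at neither age.

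Loci of neuronal and monocyte or neutrophil markers were rarely occupied, and those of border macrophages and lymphocytes more often. Neuron markers held an adult region at 2 of 12 loci and a P14 region at 0, astrocyte markers at 3 and 3 of 10, oligodendrocyte markers at 4 and 3 of 12 and endothelial markers at 5 and 4 of 9. Border macrophage markers were occupied at 8 and 3 of 12 loci, peritoneal macrophage markers at 7 and 2 of 12 and lymphocyte markers at 6 and 2 of 10 with a match. In the adult alone were 5, 5 and 4 genes of these 3 lists, against 18.7% of all genes, and at equal length 2, 3 and 0, against 5.65%. Monocyte and neutrophil markers were occupied at 1 and 1 of 8, and S100a8, S100a9 and Ly6c2 held no consensus region at either age. Compared with the 43.8% and 26% of all genes, the adult portions were higher for the border macrophage, peritoneal macrophage, endothelial and lymphocyte lists, and the P14 portions for the astrocyte and endothelial lists. Their part in the differences between ages was not tested.

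Libraries of other ages and cells listed some of the same regions. Of the shared adult regions, 34.3% had a peak in at least 1 of the libraries from postnatal day 9 microglia and 74.6% in at least 1 of the peritoneal macrophage libraries. For adult-only regions without a P14 peak these portions were 1.15% and 41.5%, and for P14-only regions without an adult peak 10.0% and 47.5%. At equal length the contrast was smaller, with 5.78% and 56.0% for the adult-only and 9.22% and 57.9% for the P14-only regions. With lists of equal length, the portion of a library's regions in the day 9 consensus was 16.0%, 16.1% and 15.8% at P14 and 15.7%, 15.8% and 14.3% in the adult. It was the only one of the 31 measures whose groups did not overlap, with a two-sided exact permutation p of 0.1, the smallest possible, and an adjusted value of 0.477.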

How the data were processed

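IRF8 CUT&RUN peak lists of 3 P14 and 3 adult libraries, grouped by their titles, were analysed. Per the file headers, the authors called peaks per library with MACS 2.2.7.1 in paired-end mode against an IgG control, keeping duplicates, with a q cutoff of 0.01, a maximum gap of 640 bp and the larger data set scaled to the smaller. Build mm10, Trim Galore, Bowtie2 and deepTools are named in the submitters' processing notes, without versions. The deposited columns used were the pileup (signal), the −log10 p-value and the fold enrichment (a ratio over control). Fold enrichments chose the regions named, and −log10 p-values set the lists of equal length and the bins of peak strength.

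Each position was counted once and chromosomes 1 to 19, X and Y were kept. Consensus regions, sharing, position (GENCODE M21 protein-coding genes, GRCm38.p6), the composite element and gene loci were computed in Python 3.11.15 with pandas 2.3.3 and pysam 0.24.0, and the overlap code was tested on simulated lists. Peak lists carry no replicate counts per region, so single regions have no test. Libraries were compared by exact permutation. Adult wild-type PU.1, H3K27ac and H3K4me1 regions needed a peak in both libraries. The regions named were the 8 of each class with the highest value of their lowest within-library fold rank, listed genes were named where all 3 libraries of one age and none of the other had a peak, and the members of the homeostatic, IRF and myeloid lists were given, except 3 that are not reported here. The members and lists were chosen with earlier results of these data known. Alternatives were stricter p-value and fold thresholds, equal list length, a larger overlap, other windows and leaving out each library. Clec7a, Mx2 and Trac were not matched and are not analysed here.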

Additional observations from a re-analysis of the deposited data

How the results depend on the processing

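The portion of P14 regions shared with the adult, 92.6%, was 74.1% with lists of equal length and 68.5% to 98.0% when each library was left out in turn. The portion of adult regions shared with P14, 43.2%, was 66.2% and 23.0% to 63.1%. The 4093 genes occupied in the adult and not at P14 became 1237 at equal length and 1608 to 6358 without single libraries, and the 190 genes occupied at P14 and not in the adult became 945 and 32 to 1164. The difference in promoter portion, -0.09 percentage points, ranged from -2.72 to 2.97 without single libraries. For the shared portions the threshold, overlap and all-library alternatives moved the value by less than 1.5 times, and the differences in region number, PU.1, composite element and library similarity kept their direction under the alternatives run, but not their size: the PU.1 difference went from -13.7 to -0.66 percentage points at equal length (exact p = 1), the composite difference from -1.47 to -0.61, and library similarity from 2.70 to 0.246 without adult replicate 3. The labels number the replicates alike at both ages. Correlations between same-numbered libraries were -0.12, 0.04 and 0.12 in the full lists, where those of other pairs ran from -0.17 to 0.21. At equal length they were 0.00018, 0.029 and 0.043, and those of other pairs ran from -0.041 to 0.021. Whether same-numbered libraries were prepared together was not tested. With the replicate block, the log2 difference in region number was 1.07 with an exact sign-flip p of 0.25, the smallest possible with 3 pairs. Counts of regions found at one age alone differed between full lists and lists of equal length, and what sets the length of the lists was not tested.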
